A study of Mus musculus with 18 samples.

Results

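The DEAD-box and DEAH-box RNA helicase genes of the mouse were followed in RNA from germ cells at 3 stages of sperm formation. They were taken as the protein-coding genes of the GENCODE vM1 annotation (mm9) whose symbol is Ddx or Dhx with a number and an optional letter, without Ddx4 and Ddx25. This gave 52 genes (36 Ddx and 16 Dhx) of 22380 protein-coding and 37310 annotated genes, and all 52 were among the 14636 genes with enough signal to be tested. All animals were adult wild type mice, with the strain given as C57BL/6 in the labels and as C57BL/6 J in the methods. Pachytene spermatocytes, round spermatids and elongating spermatids were separated by sedimentation (STA-PUT), with 8 testes pooled per purification, and the purity was judged from cell shape. The study estimated a clearly lower purity for elongating spermatids than for pachytene spermatocytes and round spermatids. From each cell type a light ribonucleoprotein (RNP) fraction and a heavy polysome fraction were taken from a sucrose gradient, with cycloheximide in the buffers to hold ribosomes on mRNA. The 6 groups of cell type and fraction had 3 libraries each, 18 in all, and nothing in the labels ties a library to an animal, so p-values measure the spread between these libraries. All groups share the same genotype and the drug, and none is an untreated or whole-cell control.

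DEAD-box and DEAH-box proteins are ATPases that unwind short RNA duplexes or strip proteins from RNA. DEAD-box members mostly act locally on short helices, whereas DEAH-box members tend to move along a strand, and both classes take part in splicing, export, ribosome assembly, translation and decay. In male germ cells transcription ends before the sperm head is shaped, so many mRNAs are stored in RNPs and moved onto polysomes later. An mRNA in the polysome fraction is taken to be in translation, and one in the RNP fraction to be stored or repressed. The values here describe the mRNAs of the helicases and not the proteins.

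The DNA that gives the family its name is shown for the members on which the results turn, with the 12 bases of the box codons in capitals and 9 bases on either side (mm9 coordinates, sense strand, 5′ to 3′).
Ddx5: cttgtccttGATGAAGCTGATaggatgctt
Ddx41: ctagccctgGATGAAGCTGACcgcatgatt
Dhx16: gtgatggtgGATGAAGCTCACgagcggacc
Dhx38: gtcatcatgGATGAGGCCCACgagcgctcc
Dhx8: attatgttgGATGAAGCACACgagaggacc
Ddx39: tttgtgctaGATGAATGTGACaagatgctg
Ddx39b: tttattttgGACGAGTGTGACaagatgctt
Ddx19a: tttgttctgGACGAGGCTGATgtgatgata
Ddx19b: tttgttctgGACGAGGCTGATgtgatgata

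The stretches lie at chr11:106646498-106646527 for Ddx5, chr13:55634408-55634437 for Ddx41, chr17:36022444-36022473 for Dhx16, chr8:112079956-112079985 for Dhx38, chr11:101613445-101613474 for Dhx8, chr8:86245000-86245029 for Ddx39, chr17:35384026-35384055 for Ddx39b, chr8:113502977-113503006 for Ddx19a and chr8:113535226-113535255 for Ddx19b. Each is coding sequence within 1 exon. Ddx5, Ddx41, Dhx38, Ddx19a and Ddx19b are on the minus strand and the others on the plus strand. Ddx39 and Ddx39b carry a variant known as the DECD box. The 30 bases of Ddx19a and Ddx19b are the same letter for letter. Of the 52 genes, 27 had codons for a DEAD box and 9 for a DEAH box, 15 had a variant of these boxes, and in Dhx32 none of the boxes searched was found. A match in Ddx26b does not make it a helicase, since its protein is related to a subunit of the Integrator complex and is a member here by its symbol alone.

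The authors' files list, for each library, the transcripts assembled from its reads with a value in FPKM, fragments scaled to the length of the transcript and to all fragments of the library. They hold no read counts, so the depth behind a value is unknown, and a transcript that was not assembled is missing, which is taken as listed at 0. Between 26773 and 109864 transcripts were assembled per library, and 91.1% to 97.4% of the splice junctions were annotated ones. A gene was given the total of its spliced transcripts (summed FPKM). Ddx28 has no intron and was measured from its single-exon transcripts. Where a gene was assembled in several partial pieces the sum counts it more than once, so levels were also computed per length over the whole gene (length-weighted FPKM), and levels of different genes are compared on that scale only. The length is that of all annotated exons together, so this scale lowers genes whose annotated exons exceed the transcript made. Ddx39 in pachytene RNP library 2 was 1 piece of 1604 nucleotides at 47.4 summed FPKM, which became 14.8 over 5155 bases. The mean of Dhx30 went from 65.6 to 26.4 over 9786 bases. The order of genes by level carries this limit. Between 0 and 9 of the 52 genes were listed at 0 per library, with the 9 in pachytene RNP library 3.

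Several libraries stood apart in ways that touch the results. The round libraries numbered 2 had an r across genes of 0.479 and 0.576 with the other round RNP libraries and of 0.500 and 0.619 with the other round polysome libraries, against 0.840 and 0.825 between libraries 1 and 3. Sertoli cells are the somatic cells that surround germ cells, and the summed FPKM of 14 of their markers was 1252 and 2498 in the round libraries 2 against 47.1 to 146 in the other round libraries. It was 87.1 to 1477 in the pachytene libraries and 22.9 to 55.3 in the elongating libraries, where Sox9, Amh, Gata4, Fshr and Inhbb were listed at 0 in all 6. The spermatid gene Spaca1 was at 6.44 and 9.56 summed FPKM in the round libraries 2 and at 124 to 316 in the other 4. Acrv1, another spermatid gene, was at 4.60 and 10.5 in the round libraries 2 and at 83.6 to 415 in the other 4. The sum of 9 round spermatid markers, Spaca1 and Acrv1 among them, was not low in the round libraries 2. It was 548 in RNP library 2 against 649 and 508, and 1333 in polysome library 2 against 1300 and 1088. The bulk of that sum in the round libraries 2 came from other markers of the list. The sum of 11 elongating spermatid markers was 89.4 and 130 in the round libraries 2 against 1468 to 5152 in the other round libraries. Hspa2, a heat shock gene known from pachytene spermatocytes, was listed at 0 in 5 of the 6 pachytene libraries and at 38.2 to 304 summed FPKM in the round ones. Hspa2 therefore does not mark the pachytene groups here. The sum of 12 pachytene markers, Hspa2 among them, was 1831 to 3081 in pachytene, 1154 to 1489 in round and 922 to 1010 in elongating polysomes. In RNPs that sum was 198 to 877, 757 to 870 and 586 to 774. A single gene, AC154124.1, took up to 85.9% of the summed FPKM of a library. Median-ratio factors on the log2 scale ran from -1.08 to -0.22 in RNP libraries and from 0.30 to 0.62 in polysome libraries. Pachytene RNP library 3 was the lowest of its group for 37 of the 52 genes in summed and for 48 in length-weighted FPKM. Fewer cells of a type and less RNA per cell cannot be told apart in these samples.

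On the length-weighted scale the splicing helicase Ddx5, which is also a coregulator of transcription, had the highest level of the 52 genes, with a mean of 143.6 FPKM over the 18 libraries and a range of 39.4 to 226.8. Its levels were 124, 157 and 39.4 in pachytene RNPs and 207, 177 and 227 in pachytene polysomes, in the order of libraries 1 to 3. They were 131, 89.9 and 92.1 in round RNPs and 205, 161 and 175 in round polysomes, and 83, 68.7 and 114 in elongating RNPs and 191, 178 and 166 in elongating polysomes. All 9 polysome values of Ddx5 were above every RNP value of the same cell type. Ddx1, which is part of the tRNA ligase complex and of cytoplasmic RNA granules, followed with a mean of 89.4, and Ddx20 (gemin3), a member of the SMN complex that assembles spliceosomal snRNPs, with 73.9. Dhx40 had a mean of 51.7, the spliceosome-disassembly helicase Dhx15 of 42.7, and the nucleolar Ddx24 of 38.9. Ddx17 had a mean of 30.9 and the splicing helicase Dhx16 of 30.7, and the library values of neighbours in this order overlapped. At the low end Ddx60 had a mean of 0.2, the viral RNA sensor Ddx58 (RIG-I) of 0.5, Ddx26b of 0.7 and Ddx19a of 1.4. By role, the 15 genes of pre-mRNA splicing and export had the highest median level of any role in all 6 groups, at 14.1 FPKM in pachytene RNPs, 36.8 in pachytene polysomes, 12.3 in round RNPs, 32.9 in round polysomes, 9.49 in elongating RNPs and 26.5 in elongating polysomes. The 15 genes of ribosome biogenesis had medians of 4.10 to 16.8 FPKM and the 12 genes of translation and cytoplasmic mRNA of 3.29 to 11.7.

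**Figure D1:**
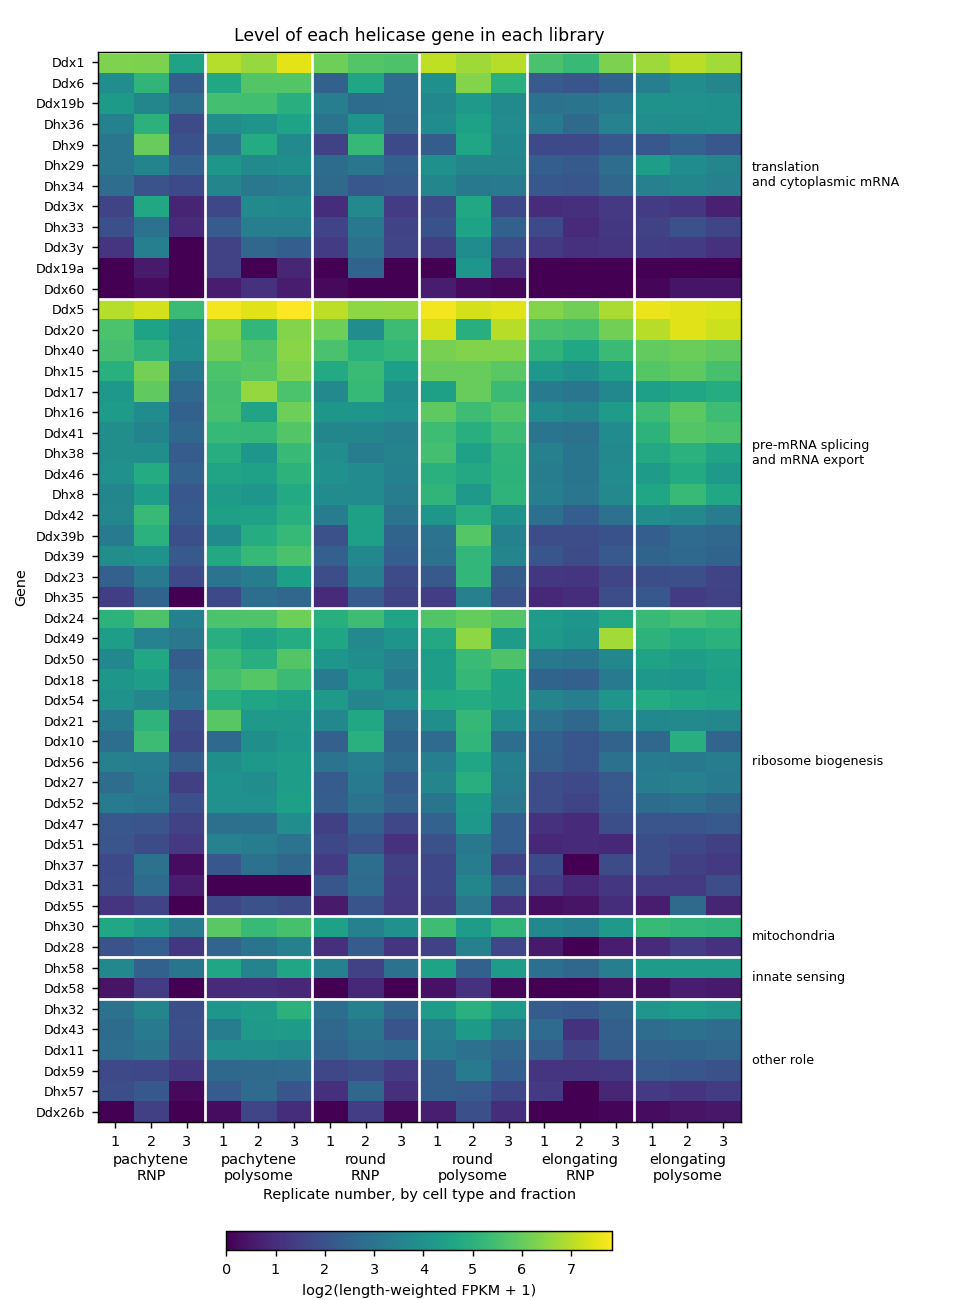
Level of each of the 52 helicase genes (rows, by role) in each of the 18 libraries (columns, by cell type, fraction and replicate number), as log2(length-weighted FPKM + 1). Ddx5, Ddx1 and Ddx20 are the brightest rows, Ddx60, Ddx58 and Ddx26b the darkest, and Ddx31 is at 0 in the 3 pachytene polysome libraries.

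The first question was whether the helicase mRNAs lay more in polysomes or in RNPs in each cell type. Differences were fitted with limma on log2(summed FPKM + 1) over all 14636 genes, with a call where the p adjusted by Benjamini-Hochberg was under 0.05. This scale understates the change of genes with low FPKM. In pachytene spermatocytes 3 helicase genes were called, all higher in polysomes (Dhx16, Ddx41 and Dhx32), where 6.33% of all genes were called. In round spermatids 1 was called (Dhx38), with 0.314% of all genes, and in elongating spermatids 1 (Dhx8), with 1.47%. With the 3 cell types averaged, 22 of the 52 were called and all 22 were higher in polysomes, against 30.6% of all genes called. These differences were largely shared by the whole table. The median log2 difference of the 52 genes was 1.04 in pachytene, 0.85 in round and 0.84 in elongating cells, and that of all genes 1.01, 0.65 and 0.71. After median-ratio scaling the medians of the helicases were -0.05, 0.16 and 0.01 and those of all genes 0.18, 0.07 and 0.02. After scaling limma called no helicase within a cell type. With this scaling the unadjusted p was under 0.05 for 4 in pachytene, 4 in round and 7 in elongating cells. Counts at an unadjusted p, here and below, have no share of all genes beside them and are not read as results about the helicases. Dhx16 was the 1 still called after scaling in the average of the 3 cell types (1.74% of all genes).

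Dhx16 lies at chr17:36016764-36029615 and codes for a DEAH-box protein that remodels the spliceosome before the first catalytic step. Its summed FPKM was 23.9, 16.1 and 5.66 in pachytene RNPs and 209, 28.1 and 174 in pachytene polysomes. In round spermatids it was 42.3, 19.4 and 17.9 in RNPs and 150.1, 155 and 116 in polysomes. In elongating spermatids it was 32.6, 13.8 and 65.2 in RNPs and 106, 208 and 144 in polysomes. In all 3 cell types the 3 polysome libraries were above the 3 RNP libraries, and pachytene polysome library 2 was the lowest polysome value. The log2 difference was 2.85 ± 0.72 (SE), adjusted p = 0.0376 in pachytene cells, 2.46 ± 0.72 (SE), adjusted p = 0.171 in round cells and 2.21 ± 0.72 (SE), adjusted p = 0.114 in elongating cells. The average was 2.51 ± 0.42 (SE), adjusted p = 0.000946, and 1.59 after scaling (adjusted p = 0.0433 by limma). Dhx16 was assembled as 1 piece in each pachytene RNP library and as 4, 1 and 2 pieces in the polysome libraries, and each piece adds to the sum. On the length-weighted scale it was at 19.1, 13 and 4.36 in pachytene RNPs and 46.3, 22.6 and 68.5 in pachytene polysomes. The pachytene call was lost without pachytene RNP library 2 or 3, pachytene polysome library 1 or 3, round RNP library 3, elongating RNP library 1 or elongating polysome library 2 or 3 (adjusted p of 0.0507 to 0.180). The average difference was 1.71 on the length-weighted scale, and 0.56 after scaling (adjusted p = 0.170 by limma), which is not called.

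Ddx41, a DEAD-box protein of the catalytic spliceosome that is also known as a DNA sensor, lies at chr13:55631771-55638019. Its summed FPKM in pachytene spermatocytes was 14.6, 10.9 and 5.76 in RNPs and 39.6, 75.8 and 90.7 in polysomes. All polysome values were above all RNP values, and the log2 difference was 2.61 ± 0.68 (SE), adjusted p = 0.0392. In elongating spermatids it was at 7.69, 7.03 and 44.8 in RNPs and 33.2, 194 and 79.5 in polysomes, which overlap through RNP library 3, and the difference was 2.46 ± 0.68 (SE), adjusted p = 0.0729. Without that library it was 3.28 (adjusted p = 0.0270 by limma) and called. Dhx32 (chr7:140912625-140974409), a DEAH-type protein, was at 9.94, 16 and 3.46 in pachytene RNPs and 24, 28.8 and 46.1 in pachytene polysomes. Its values were 9, 14 and 7.28 in round RNPs and 27.7, 44.5 and 25.1 in round polysomes. Elongating RNPs had 5.78, 4.98 and 7.4 and elongating polysomes 23.4, 27.6 and 24. The fractions of Dhx32 did not overlap in any of the 3 cell types. The difference was 1.80 ± 0.48 (SE), adjusted p = 0.0415 in pachytene spermatocytes and 1.76 ± 0.28 (SE), adjusted p = 0.000746 for the average. The pachytene call of Ddx41 was lost without pachytene RNP library 2 or 3, any pachytene polysome library, round RNP library 3, round polysome library 3, elongating RNP library 1 or elongating polysome library 3 (adjusted p of 0.0508 to 0.179). That of Dhx32 was lost without pachytene RNP library 3, any pachytene polysome library, round RNP library 3, round polysome library 3, elongating RNP library 1 or 3 or any elongating polysome library (adjusted p of 0.0510 to 0.190).

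Dhx38 (chr8:112071917-112089501), which acts between the catalytic steps of splicing, was the only helicase gene called in round spermatids. It was at 12.7, 8.75 and 9.67 summed FPKM in RNPs and 173, 51.8 and 70.1 in polysomes, so every polysome library was at least 51.8 and no RNP library above 12.7. The log2 difference was 2.94 ± 0.53 (SE), adjusted p = 0.0221. In pachytene spermatocytes the values were 12.4, 13.2 and 3.76 in RNPs and 25.4, 15 and 34.1 in polysomes. In elongating spermatids they were 14.4, 15.2 and 20 in RNPs and 42.7, 65.2 and 34.2 in polysomes, and the fractions overlapped in neither cell type. In round RNPs Dhx38 was 1 piece per library with the longest piece at 4385, 4348 and 4433 nucleotides. In round polysomes it was broken into 4, 4 and 2 pieces, the longest of 2488, 3023 and 3892 nucleotides. On the length-weighted scale the round values were 13.3, 9.06 and 10.2 in RNPs and 44.3, 21.6 and 32.9 in polysomes, still apart, with a difference of 1.47 that was not called (adjusted p = 0.119 by limma). The call was also lost without round RNP library 1 or 3 or round polysome library 1 or 3 (adjusted p of 0.0523 to 0.118). Dhx8 (chr11:101594233-101628672), which releases the spliced mRNA from the spliceosome, was the only helicase gene called in elongating spermatids. Its summed FPKM there was 22, 8.64 and 13 in RNPs and 53, 81.2 and 50.3 in polysomes, a difference of 2.07 ± 0.46 (SE), adjusted p = 0.0395. The groups lay apart, and on the length-weighted scale the difference was 1.50 (adjusted p = 0.0699 by limma) and not called. The call was lost without any 1 of the 6 elongating libraries, any pachytene polysome library or round polysome library 3 (adjusted p of 0.0508 to 0.191).

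**Figure D2:**
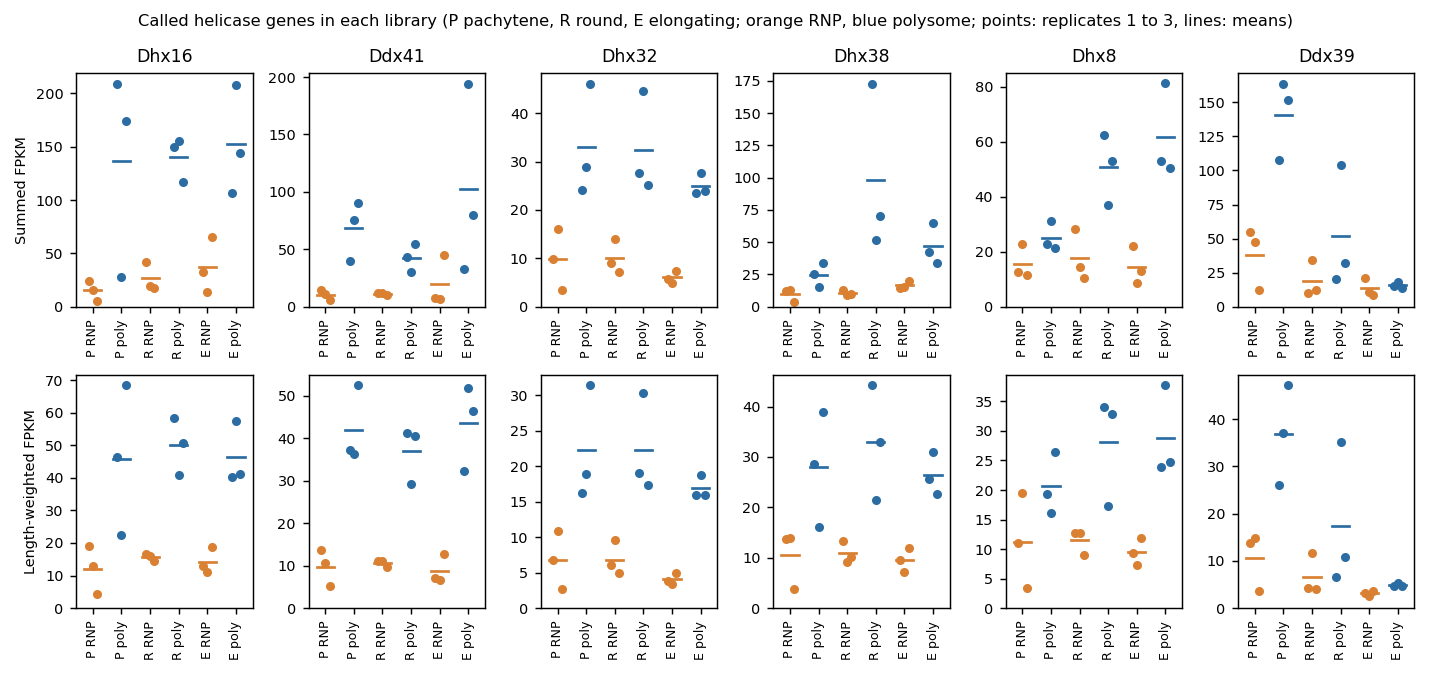
Values of the 6 helicase genes called in a comparison within a cell type or a fraction, in summed FPKM (upper row) and length-weighted FPKM (lower row), with 1 point per library, lines for group means, RNPs in orange and polysomes in blue. Polysome libraries lie above RNP libraries for Dhx16, Dhx32 and Dhx38 in all cell types, and Ddx39 polysome values drop from 108 to 164 in pachytene to 13.9 to 18.2 in elongating cells.

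By role, 10 of the 15 splicing and export genes were called higher in polysomes over the 3 cell types, where 30.6% of all genes were called. All 15 had a positive difference with a median of 1.20, which was 0.30 after scaling. The median of all genes was positive as well before scaling. Counts of positive differences, here and below, have no share of all genes beside them and are not read as results about the helicases. The called ones were Dhx16, Ddx41, Dhx38, Ddx20 (1.45, adjusted p = 0.00858), Dhx8 (1.44, adjusted p = 0.00162), Ddx46 (1.27, adjusted p = 0.0389), Ddx39 (1.22, adjusted p = 0.0227), Ddx17 (1.20, adjusted p = 0.0234), Dhx15 (1.12, adjusted p = 0.0297) and Ddx5 (0.78, adjusted p = 0.02), whose sign turned to -0.16 after scaling. Leaving out single libraries ended the call of Ddx46 for all but pachytene RNP 2, pachytene polysome 2, round RNP 1 and 2, round polysome 1 and 2, elongating RNP 3 and elongating polysome 1 (adjusted p of 0.0599 to 0.0831). It ended that of Dhx15 for pachytene RNP 3, pachytene polysome 3, round RNP 3, elongating RNP 2 and elongating polysome 1 (adjusted p of 0.0505 to 0.0653). Ddx20 was at 159.8, 29.7 and 126 length-weighted FPKM in round polysomes and 126, 177 and 148 in elongating polysomes, with its lowest polysome value in round library 2. Ddx46, a U2 snRNP helicase, had 142 summed FPKM in pachytene RNP library 2 and 76.7, 30.8 and 65.6 in the 3 pachytene polysome libraries, so its fractions overlapped there.

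Of the 15 ribosome biogenesis genes 5 were called in the average, all higher in polysomes and a share near the 30.6% of all genes, and 14 had a positive difference (median 0.84, and 0.01 after scaling). Ddx18, a nucleolar protein needed for ribosomal RNA processing, had the largest difference, 1.82 ± 0.36 (SE), adjusted p = 0.00216, and was at 39.5, 45.3 and 6.48 in pachytene RNPs and 100.4, 115 and 93.7 in pachytene polysomes. The fractions of Ddx18 did not overlap in any cell type. Ddx50 had a difference of 1.45 (adjusted p = 0.00862), Ddx27 of 1.31 (adjusted p = 0.00229), Ddx24 of 1.06 (adjusted p = 0.0109) and Ddx52 of 0.84 (adjusted p = 0.0488). The call of Ddx52 held without pachytene RNP library 1 or 2, round RNP library 3 or round polysome library 1, and was lost without any other library (adjusted p of 0.0524 to 0.0952).

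Of the 12 genes of translation and cytoplasmic mRNA 3 were called in the average (Ddx6, Dhx34 and Ddx60; 30.6% of all genes), and 9 had a positive difference with a median of 0.71 that turned to -0.18 after scaling. Ddx6, which represses translation and feeds mRNA into decay, had a difference of 1.73 (adjusted p = 0.0357), and Dhx34, a factor of nonsense-mediated decay, of 1.27 (adjusted p = 0.0135). The call of Ddx6 held without pachytene RNP library 1 or 2, pachytene polysome library 1, round RNP library 2, round polysome library 1, elongating RNP library 3 or elongating polysome library 1 or 3, and was lost without any other (adjusted p of 0.0567 to 0.0762). Ddx60 passed the test but was listed at 0 in all 3 elongating RNP libraries and reached at most 12.8 summed FPKM, with 77.6% of its FPKM in pieces under 500 nucleotides, so no fold is given. The translation initiation helicase Ddx3x was at 3.04, 14.8 and 2.95 in elongating RNPs and 2.26, 1.84 and 2.44 in elongating polysomes, the 1 helicase gene with all 3 polysome libraries below the RNP libraries in that cell type (1.76% of all genes), and its difference was -0.99 ± 1.03 (SE), adjusted p = 0.634. Its value in RNP library 2 is the sum of 4 pieces. In length-weighted FPKM Ddx3x was at 1.01, 1.06 and 1.49 in elongating RNPs and 1.62, 1.35 and 0.661 in polysomes, and 0 helicase genes had this order there (0.97% of all genes). Among the remaining roles, the mitochondrial ribosome helicase Dhx30 was called (1.32, adjusted p = 0.00233), as was Dhx58 (LGP2), a regulator of viral RNA sensing (1.39, adjusted p = 0.0115). Dhx32 and Ddx26b were the called genes of the 6 with another role. Ddx26b was listed at 0 in all 3 elongating RNP libraries and never exceeded 16.6 summed FPKM, so no fold is given for it.

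Counted without a model, the 3 polysome libraries were all above the 3 RNP libraries for 18 of 52 helicase genes in pachytene, 15 in round and 25 in elongating cells. Over all genes this held for 29.5%, 14.4% and 37.0%. The smallest p that an exact permutation test of 3 against 3 libraries can give is 0.1. On the length-weighted scale the counts were 27, 22 and 39, with 40.4%, 19.7% and 60.1% of all genes. The order held in all 3 cell types for 6 helicase genes, Ddx5, Ddx18, Ddx27, Dhx16, Dhx32 and Dhx38, against 6.65% of all genes, and on the length-weighted scale for 18, against 14.6%. With limma on length-weighted values 21 helicase genes were called in pachytene cells (28.7% of all genes) and 33 in the average (55.2%), all but Ddx31 in pachytene cells higher in polysomes.

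Differences that ran the other way were not called on the summed scale, and those of the 5 genes named here were positive on the length-weighted scale. The lowest in pachytene cells among genes listed above 0 in both fractions were Dhx9, -0.53 ± 0.94 (SE), adjusted p = 0.719, and Ddx10, -0.42 ± 0.64 (SE), adjusted p = 0.669. Dhx9 (RNA helicase A) was at 9.11, 75.8 and 17 in RNPs and 8.48, 32.1 and 13.7 in polysomes, and library 2 was the highest in both fractions. The differences were 0.19 for Dhx9 and 0.29 for Ddx10 on the length-weighted scale. In round cells the lowest were the Y-linked Ddx3y, -1.17 ± 0.89 (SE), adjusted p = 0.543, and the DNA helicase of sister chromatid cohesion Ddx11, -1.03 ± 0.58 (SE), adjusted p = 0.404. Length-weighted, Ddx3y was at 1.56, 6.79 and 2.14 in round RNPs, where it was assembled as 4, 2 and 5 pieces, and at 1.78, 13 and 2.61 in round polysomes, a difference of 0.39. Ddx11 was at 4.67, 6.12 and 5.4 length-weighted FPKM in round RNPs and 8.41, 6.79 and 5.05 in round polysomes, a difference of 0.26. In elongating cells the lowest was Ddx43, -1.13 ± 0.74 (SE), adjusted p = 0.412, whose RNP values of 64.2, 4.81 and 9.81 spread more than its polysome values of 4.37, 9.71 and 5.75. Its length-weighted values were 5.67, 1.2 and 4.12 in RNPs and 5.9, 6.72 and 5.95 in polysomes, so that all polysome libraries were above all RNP libraries, with a difference of 0.77 (adjusted p = 0.303 by limma). Over the 3 cell types Ddx3y had -0.63 ± 0.51 (SE), adjusted p = 0.344, and 0.37 on the length-weighted scale. The change of the fraction difference from one cell type to another was called for 0 helicase genes by limma in each of the 3 comparisons. Unadjusted p was under 0.05 for 1 from pachytene to round, 1 from round to elongating and 3 from pachytene to elongating cells, and 0.0137%, 0.00683% and 0.0273% of all genes were called. Leaving out genes listed at 0 in all 3 libraries of a group compared, the highest and lowest changes from pachytene to round cells were Dhx38 (1.60) and Ddx19b (-1.69), and those from round to elongating cells Ddx58 (1.88) and Ddx43 (-2.34). From pachytene to elongating cells they were Ddx58 (1.52) and Ddx19b (-3.12), and the adjusted p was 1 for all of these. With length-weighted values Dhx38 and Ddx19b had 0.054 and -0.82 from pachytene to round cells, Ddx58 and Ddx43 0.14 and -0.33 from round to elongating cells, and Ddx58 and Ddx19b 0.0025 and -0.81 from pachytene to elongating cells.

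**Figure D3:**
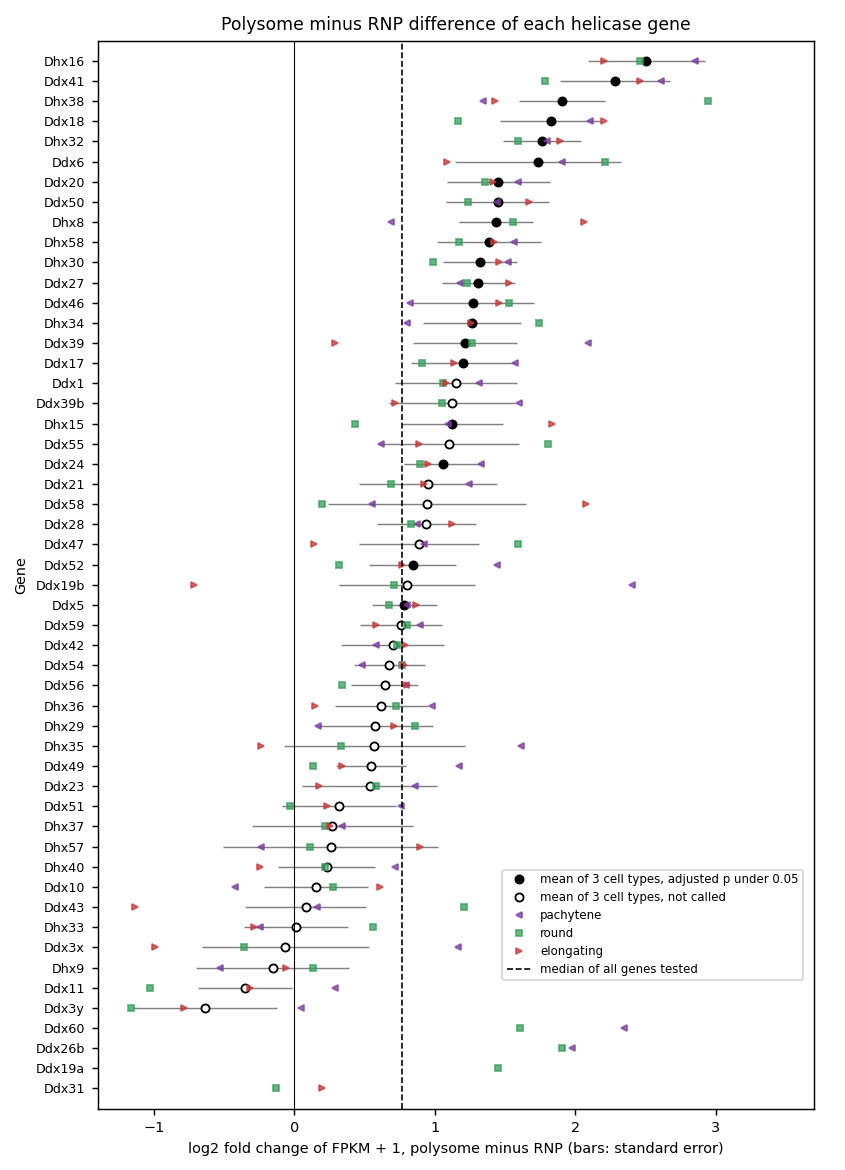
Polysome minus RNP log2 difference in summed FPKM + 1 for each helicase gene, with the average of 3 cell types and its standard error as circles (filled when the adjusted p is under 0.05), each cell type as a coloured marker, and the median of all genes as a dashed line. Genes listed at 0 in all 3 libraries of a group have no average and no marker for that cell type, and for most others the circles lie to the right of 0, near the median of all genes at 0.76.

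Ddx31, a nucleolar helicase at chr2:28695926-28761091, was listed at 0 in all 3 pachytene polysome libraries. It was at 3.22, 8.22 and 2.64 in pachytene RNPs, 49.9, 5.66 and 4.23 in round RNPs and 20.1, 11.6 and 4.13 in round polysomes. Elongating RNPs had 5.33, 1.58 and 5.89 and elongating polysomes 2.75, 2.79 and 11. It was therefore the 1 helicase gene with all pachytene polysome libraries below the RNP libraries (0.615% of all genes), and no fold is given against a group listed at 0. Single-exon fragments on its strand were also lacking there, since the length-weighted values were 0 as well. On that scale limma called it lower in pachytene polysomes than in RNPs (adjusted p = 0.0285) and higher in round than in pachytene polysomes (adjusted p = 0.0406), which the summed values did not. With round RNP library 1 left out, limma on summed values called it higher in elongating than in pachytene polysomes (adjusted p = 0.0397). Of the 14636 genes only Ddx31 and Wdr6 were at 0 in these 3 libraries and above 0 in the other 15 on the length-weighted scale. The gene Gtf3c4, which starts beside Ddx31 on the other strand, was assembled in the same libraries at 31.1, 23.6 and 28.3 summed FPKM. A transcript that is not assembled is not the same as an RNA that is absent.

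The second question was how the helicase mRNAs differed between cell types within a fraction. These comparisons share their groups with each other and with the fraction comparisons, so their values are not independent. In polysomes, 1 helicase gene was called between elongating and pachytene cells, Ddx39, where 5.96% of all genes were called. None was called by limma between round and pachytene polysomes (0.157% of all genes), with 4 at an unadjusted p under 0.05, or between elongating and round polysomes (0.547%), with 1. In RNPs none was called between round and pachytene cells (0% of all genes), with 1 at an unadjusted p under 0.05, between elongating and round cells (0.082%), with 4, or between elongating and pachytene cells (0.683%), with 4. The median log2 difference of the 52 genes was -0.48 from pachytene to elongating polysomes, against -0.24 over all genes, and 17 of the 52 were positive. From round to elongating cells it was -0.44 in RNPs and -0.42 in polysomes, against -0.19 and -0.15 over all genes.

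Ddx39 (chr8:86239076-86250791) codes for a helicase of mRNA export known to be abundant in dividing cells. Its summed FPKM was 108, 164 and 152 in pachytene polysomes, 20.6, 104 and 31.8 in round polysomes and 15.1, 18.2 and 13.9 in elongating polysomes. In RNPs it was at 54.6, 47.4 and 12.2 in pachytene, 10.2, 33.9 and 12.6 in round and 20.7, 11 and 8.62 in elongating cells. Pachytene and elongating polysomes did not overlap, and round polysome library 2 was just under the lowest pachytene value. The difference from pachytene to elongating polysomes was -3.07 ± 0.64 (SE), adjusted p = 0.0152, and it was -2.79 after scaling (adjusted p = 0.0157; 3.94% of all genes) and -2.63 on the length-weighted scale (adjusted p = 0.0101 by limma; 13.1% of all genes). On the length-weighted scale 5 more helicase genes were called lower in elongating than pachytene polysomes, namely Ddx11, Ddx19b, Ddx28, Ddx51 and Ddx52. The call of Ddx39 was lost when pachytene polysome library 2 (adjusted p = 0.0660) or 3 (0.0561) or elongating polysome library 1 (0.0574) or 3 (0.0599) was left out. The Sertoli markers summed to 217, 1087 and 1477 in the pachytene polysome libraries and 42.1 to 55.3 in the elongating ones, and their part in the difference was not tested. With both round libraries 2 left out the adjusted p of Ddx39 was 0.00289.

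Other differences between cell types were not called. In polysomes from pachytene to elongating cells Dhx8 had the largest positive difference among genes not listed at 0 throughout a group, which leaves out Ddx31, at 1.24 ± 0.46 (SE), adjusted p = 0.112 (0.46 on the length-weighted scale), and Ddx6 the next lowest value after Ddx39, -2.37 ± 1.02 (SE), adjusted p = 0.164. Ddx6 was at 58.6, 106 and 127 in pachytene polysomes and 10.9, 35.4 and 12.8 in elongating polysomes, and these groups did not overlap. From round to elongating polysomes its difference was -1.95 (adjusted p = 0.36), and Ddx41 and Ddx58 had 0.94 (adjusted p = 0.488) and 1.30 (adjusted p = 0.583). From pachytene to round polysomes Dhx38 had 1.82 (adjusted p = 0.283), Ddx19b -2.14 (adjusted p = 0.499) and Ddx39 -1.73 (adjusted p = 0.449). In RNPs from pachytene to round cells the extremes were Ddx3y (2.02, adjusted p = 1), Ddx21 (1.27, adjusted p = 1), Dhx9 (-1.02, adjusted p = 1) and Ddx42 (-0.97, adjusted p = 1). From round to elongating RNPs they were Ddx19b (1.51, adjusted p = 0.614), Dhx29 (0.83, adjusted p = 0.73), Ddx18 (-1.48, adjusted p = 0.534) and Ddx50 (-1.43, adjusted p = 0.555). From pachytene to elongating RNPs they were Dhx35 (1.80, adjusted p = 0.448), Dhx16 (1.18, adjusted p = 0.443), Dhx9 (-1.99, adjusted p = 0.314) and Ddx42 (-1.76, adjusted p = 0.191). The difference of Ddx19b rests on 1 library, with 6.87, 141 and 14.4 summed FPKM in elongating RNPs, which became 6.66, 7.12 and 8.56 on the length-weighted scale. That scale also turned the sign of Dhx35 from pachytene to elongating RNPs (-0.076), which was at 1.74, 4.8 and 0 in pachytene and 0.832, 1.03 and 2.64 in elongating RNPs. It turned that of Dhx29 from round to elongating RNPs (-0.32) and of Ddx58 from round to elongating polysomes (-0.049) as well. It lowered the differences of Ddx3y (0.47), Ddx21 (0.34) and Ddx42 (-0.12) from pachytene to round RNPs, of Dhx16 (0.38) from pachytene to elongating RNPs, of Dhx38 (0.26) from pachytene to round polysomes and of Ddx41 (0.22) from round to elongating polysomes in size.

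A number of helicase genes were high or low together in the round libraries 2, which had many Sertoli transcripts. In round RNPs 27 of the 52 were highest in library 2, against 44.4% of all genes, and in round polysomes 31 against 48.5%. Ddx39b, the paralog of Ddx39 in mRNA export, was at 2.82, 20.4 and 4.72 length-weighted FPKM in round RNPs and 6.86, 53.8 and 9.93 in round polysomes. Ddx6 was at 4.41, 23.9 and 6.06 in round RNPs and 14.2, 81.9 and 30.4 in round polysomes. Dhx9 was at 1.87, 36.9 and 2.36 in round RNPs and 4, 23.1 and 11.5 in round polysomes. All of these were highest in library 2. Ddx23, a spliceosomal helicase, was at 3.53, 35.3 and 3.97 in round polysomes and Ddx10, a nucleolar one, at 5.65, 34.4 and 6.15. Ddx20 and Dhx58 ran the other way and were lowest in library 2. In round RNPs Ddx20 was at 67.8, 13.4 and 40 and Dhx58 at 9.84, 1.91 and 6.53. The pachytene polysome libraries, with Sertoli sums of 217, 1087 and 1477, had Ddx20 at 79.6, 35.4 and 82.6 and Dhx58 at 23.3, 10.4 and 23.7. There both genes were lowest in library 2 but highest in library 3. In elongating cells, where the Sertoli markers were lowest, Ddx39b stayed between 2.58 and 5.69 and Dhx9 between 2.28 and 4.46 length-weighted FPKM. The part of Sertoli RNA in these levels was not tested. With both round libraries 2 left out, 9 helicase genes were called higher in pachytene polysomes than RNPs, 1 in round and 3 in elongating cells, against 18.1%, 0.672% and 5.08% of all genes under the same setting.

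**Figure D4:**
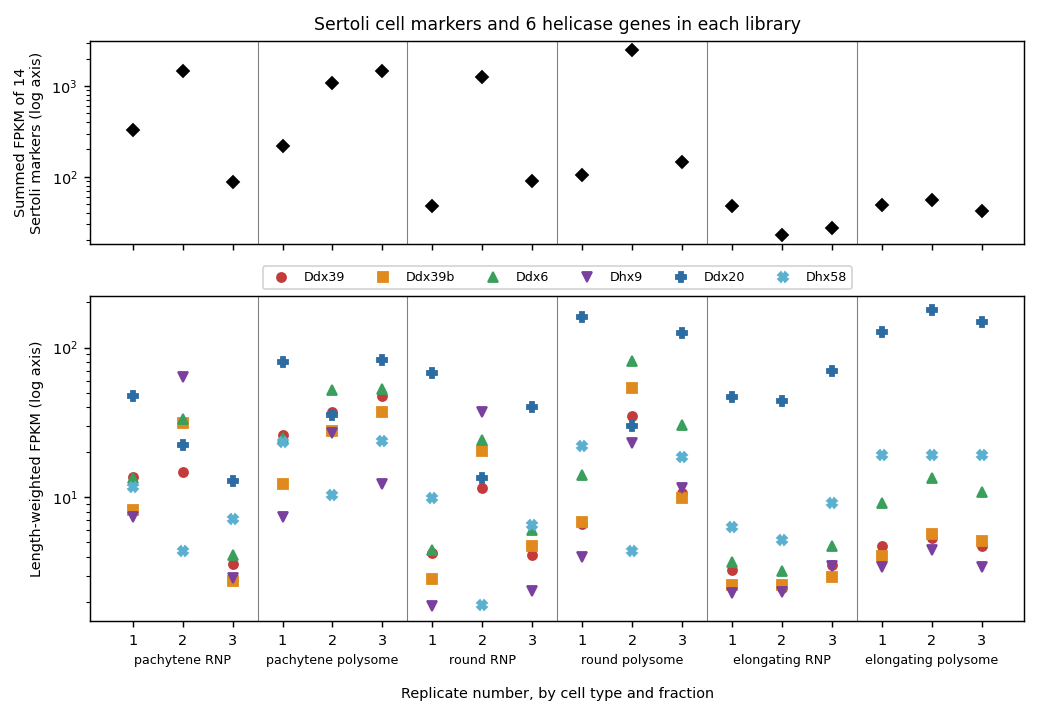
Summed FPKM of 14 Sertoli cell markers (upper panel, log axis) and length-weighted FPKM of 6 helicase genes (lower panel, log axis) in each of the 18 libraries. In the round libraries 2, where the markers reach 1252 and 2498, Ddx39, Ddx39b, Ddx6 and Dhx9 are higher and Ddx20 and Dhx58 lower than in round libraries 1 and 3.

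Pairs of close relatives were compared on the length-weighted scale. Ddx19a and Ddx19b are helicases of mRNA export at the nuclear pore, but by role they were counted above under translation and cytoplasmic mRNA. Both lie side by side on chromosome 8 with 5387 bases between them. They share 831 of the 50-base stretches of their transcripts, which is 33.3% of those of Ddx19a and 12.4% of those of Ddx19b, so reads of 50 bases could be placed on either and their values are uncertain. Ddx19a was listed at 0 in all 6 elongating libraries and reached 16.5 in round polysome library 2, whereas Ddx19b was assembled in every library. Ddx19b was at 18.3, 11.1 and 6.47 in pachytene RNPs and 44.2, 43.1 and 30 in pachytene polysomes. Elongating polysomes had 15.2, 14.6 and 14.2, all below the pachytene ones. Ddx3x and Ddx3y, from the X and the Y chromosome, share 2 such stretches, and the other pairs share 0. Ddx3x was at 2.07, 24.6 and 0.767 in pachytene RNPs and 2.53, 25.2 and 2.23 in round polysomes, and Ddx3y was at 1.3, 9.31 and 0 in the former and 1.78, 13 and 2.61 in the latter. In pachytene and round cells both genes were highest in the libraries numbered 2, and in the elongating libraries they lay between 0.661 and 1.74. Ddx17 followed below its relative Ddx5 in every library, with 44.5, 95.7 and 48.2 in pachytene polysomes and 20.5, 23.4 and 27.6 in elongating polysomes. Ddx21 and Ddx50 are nucleolar relatives that lie 13493 bases apart on chromosome 10. In elongating polysomes Ddx50 was at 21.6, 19.4 and 21.9 and Ddx21 at 11.5, 12 and 11.3, without overlap.

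**Figure D5:**
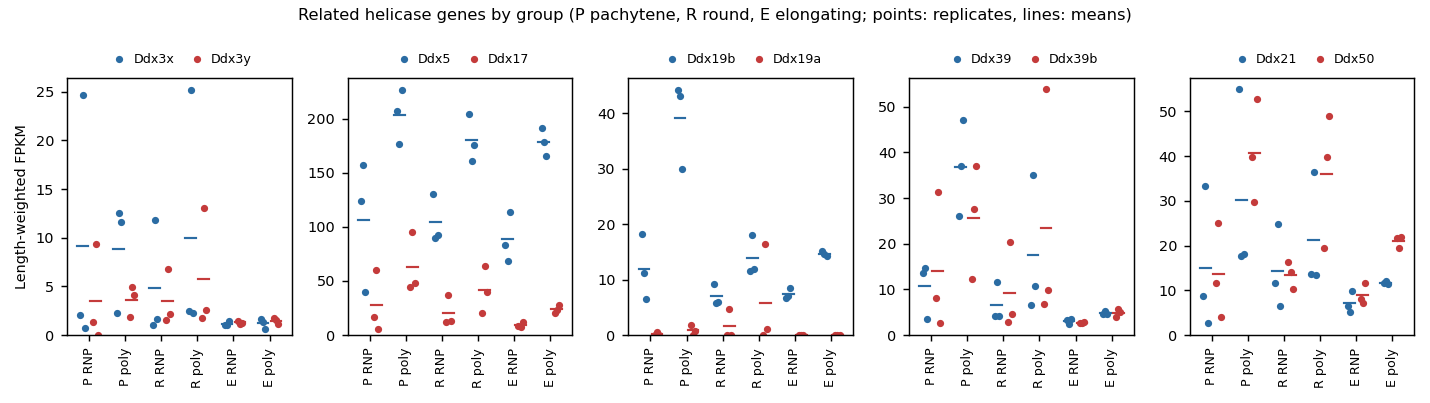
Length-weighted FPKM of 5 pairs of related helicase genes in the 6 groups of cell type and fraction, with 1 point per library and lines for group means. Ddx5 lies above Ddx17 and Ddx19b above Ddx19a in every group mean, and Ddx39 and Ddx39b are at most 5.69 in elongating cells.

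The assembled 3′ ends could be read for the transcripts that match an annotated mRNA. Ddx56, a nucleolar helicase, had assembled 3′ UTRs of 720, 842 and 873 nucleotides in pachytene polysomes and 293, 212 and 208 in pachytene RNPs. In elongating polysomes they were 294, 212 and 214, so the long ends were those of pachytene polysomes and of round polysome libraries 1 and 2 (489 and 2522). With 3 libraries against 3 the exact permutation p cannot go below 0.1, and no test was made. Ddx39b, with an annotated chain in all 18 libraries, ended 144 to 255 nucleotides after the stop codon, and Ddx39 134 to 151. The assembled end moves with coverage as well as with the site of polyadenylation, and their parts were not tested.

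For comparison, 24 other RNA helicases and 33 cofactors and partners of the helicases were tested. In the average over cell types 9 of the other helicases were called higher in polysomes (30.6% of all genes), among them Skiv2l2, Ddx4, Eif4a3 and Tdrd12, and 1 lower, Helz at -1.23 (adjusted p = 0.00702 by limma). Of the cofactors 10 were called, all higher (Nup214, Eif4g2, Gle1, Eif4enif1, Thoc1, Tfip11, Edc4, Lsm14b, Gpatch2 and Eif4h). Their median difference was 0.87, near the 0.94 of the 52 genes and the 0.76 of all genes. Between pachytene and elongating polysomes the translation initiation factor Eif4g1 was called higher in elongating cells, at 3.12 (adjusted p = 0.0160 by limma). Ddx4 (the germ cell helicase vasa) is left out by the rule and was at 54.3 to 320.0 summed FPKM over the 18 libraries.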

How the data were processed

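RNA of the RNP and polysome fractions of 3 cell types was sequenced from stranded total RNA libraries with reads of 50 bases, partly single and partly paired. The methods name separate sequencing sites for single and paired reads, and neither site nor read type was part of the fits here. The authors used the FASTX-Toolkit for trimming, TopHat2 for alignment (genome build mm9) and Cufflinks for a separate assembly per library, and the deposited values are FPKM per assembled transcript, with no normalization between libraries. For its own comparisons the study normalized the fractions by linear regression on control mRNAs chosen as equally spread between RNPs and polysomes. It set this beside geometric and quantile normalization and used Cuffdiff for differences. The regression on control mRNAs was not repeated here. Exact versions and options are not given in the sources used here. The deposited GTF lines also hold Cufflinks scores, confidence bounds and coverage, of which coverage per FPKM (1.20 to 2.26) was the only trace of depth and the rest was not used.

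Groups were taken from the labels. Transcripts were assigned to genes by a shared annotated splice junction on the same strand, their FPKM were summed, and genes that reached an FPKM of 1 in 3 or more libraries entered the tests. limma 3.58.1 (trend) in R 4.3.3 was fitted on log2(FPKM + 1) with 6 groups over 18 libraries and 13 contrasts, two-sided, with Benjamini-Hochberg adjustment over all genes. Tables, sequences and figures were made with Python 3.11.15, pandas 2.3.3, numpy 2.4.6 and matplotlib 3.10.9. The fit was tested on simulated data. Box codons and 50-base stretches were read from the GENCODE vM1 sequences of protein-coding transcripts, and the annotation gave their mm9 coordinates.

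Genes were named when called in the fit with or without median-ratio scaling, when among the 10 highest by mean FPKM, when among the 2 largest or 2 smallest differences of a contrast at a mean of at least 5 FPKM, or when they have a close paralog. Other genes were added after their values were seen (Ddx56, Ddx23, Ddx11 and the Sertoli comparison). The helicase genes, role groups and lists were chosen with earlier results of these data known. The round RNP and round polysome libraries of the same number deviated together (r of 0.533, 0.663 and 0.206), as did pachytene and round RNPs (0.410, 0.597 and 0.113). In no other pair of groups was r over 0.1 for all 3 numbers. Alternatives were another pseudocount (0.1), filters, scaling, quantile normalization, fits of only the groups compared, a replicate block, annotated intron chains only, length-weighted values and each library left out.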

Additional observations from a re-analysis of the deposited data

How the results depend on the processing

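Of the helicase genes called, the counts depended most on scale. In the order pachytene, round, elongating, the average of cell types, and elongating against pachytene polysomes, 3, 1, 1, 22 and 1 were called as reported. Median-ratio scaling and quantile normalization each gave 0, 0, 0, 1 and 1, length-weighted values 21, 0, 3, 33 and 6, length-weighted values after scaling 0, 0, 0, 1 and 3, and annotated intron chains only 1, 1, 1, 3 and 0. Fits of only the groups compared gave 0, 0, 13, 22 and 9, a pseudocount of 0.1 gave 5, 1, 2, 23 and 2, leaving out both round libraries 2 gave 9, 1, 3, 23 and 3, and this with scaling 0, 0, 0, 2 and 5. Between round and pachytene polysomes 1 gene was called with a pseudocount of 0.1, with length-weighted values and with scaling without the round libraries 2, and between elongating and pachytene RNPs 1 with length-weighted values after scaling, against 0 as reported. Leaving out each library in turn gave 0 to 7, 0 to 1, 0 to 3, 18 to 26 and 0 to 2, and 0 to 0 in the other comparisons. Length-weighted values after scaling, and scaling without the round libraries 2, were chosen after seeing the data. The share of all genes called moved with the setting as well. In pachytene cells it was 6.33% as reported, 28.7% with length-weighted values and 18.1% without the round libraries 2. In the average it was 30.6% as reported, 55.2% with length-weighted values and 1.74% with median-ratio scaling. Shares are not given for every setting, so these counts and those with a block are not read as results about the helicases.

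The replicate number as a block gave 8, 1, 2, 28 and 2 helicase genes called in the same order and 0 in the other comparisons. The counts for pachytene cells, elongating cells, the average, and elongating against pachytene polysomes were higher than without the block. The round count and that between round and pachytene RNPs, where r was over 0.1 for all 3 numbers, were unchanged. The average includes the round libraries, so pairing cannot be taken to have no effect. Pachytene RNPs and polysomes also deviated together for numbers 1 and 2 (r of 0.391 and 0.316) but not for 3 (-0.071).

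With intron chains that match an annotated mRNA only, the sign turned for Dhx16 (-2.20) and Ddx41 (-0.73) in pachytene cells, Dhx38 in round cells (-3.49), Dhx8 in elongating cells (-2.36), and in the average for Dhx16 (-1.44), Dhx38 (-1.09), Dhx8 (-1.54), Ddx50 (-1.31), Ddx17 (-0.62) and Ddx27 (-0.47). That alternative drops partial transcripts by its construction. In the average Ddx5 turned to -0.16 with scaling, -0.18 with scaling without the round libraries 2 (Ddx52 to -0.13) and -0.21 with length-weighted values after scaling, where Ddx24 (-0.20) and Ddx46 (-0.051) also turned. Of 46 named differences that were not called, 32 changed sign under at least 1 alternative, 28 of them with annotated chains only. Depth limits all of this, since without counts a gene listed at 0 cannot be told from one below detection.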
